A study of Homo sapiens with 6 samples.

Results

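The genes described here are 9 markers that have been used to isolate or trace stem-like cells of colon cancer, namely ABCG2, PROM1, CD44, ALCAM, EPCAM, SOX9, BMI1, ALDH1A1 and DCLK1. They were followed in DLD1, an established cell line from a human colorectal adenocarcinoma, infected with lentivirus that carried either a control short hairpin RNA (shRNA) or one against CDKL1. Cells cut an shRNA to a small RNA that directs a matching transcript to degradation. The markers were chosen by name with earlier results of this comparison known, and each marker was read from its brightest probe set, so their values in this comparison are given as a description with no test. Of the 9 markers, 8 had a probe set annotated to that gene alone, among 18132 genes with such a probe set. BMI1, a Polycomb subunit that represses cell cycle inhibitors, had only probe sets that also carried the name of a readthrough transcript, and it was given no value.

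Both groups were the same DLD1 line grown in RPMI1640 with serum, and each held 3 samples that the submitters call independent, with 1 Affymetrix array each. The label text does not say whether they were separate infections, and p-values then reflect only the spread among these samples, which may be technical. The sources used here do not give the number of hairpins, their sequences, any selection or the time after infection. The targeted gene, CDKL1, a serine/threonine kinase related to the cyclin-dependent kinases, had a log2 level of 4.37 ± 0.18 (SD, n = 3) with control shRNA and 4.17 ± 0.088 (n = 3) with CDKL1 shRNA, a log2 difference of -0.19 (SE 0.093, limma adjusted p = 0.219). These levels lie within the range of background control probe sets of moderate base composition, 2.97 to 4.92, so the array could not check the knockdown.

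In normal colon, stem cells at the crypt base divide to renew the epithelium and lose their stem cell programme as they move towards the lumen. Colon tumours can keep cells with parts of that programme, and no single marker defines them. The markers belong to different kinds of protein. ABCG2 is an efflux pump that expels dyes and drugs and marks the dye-excluding side population, and ALDH1A1 oxidises retinal to retinoic acid and is read in aldehyde dehydrogenase activity assays. PROM1 (CD133), CD44, ALCAM (CD166) and EPCAM are surface glycoproteins used for cell sorting. SOX9 is a crypt-base transcription factor, BMI1 is a chromatin regulator, and DCLK1 is a microtubule-associated kinase of tuft cells.

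ABCG2 and PROM1 stood apart from the other measured markers, each at nearly the same increase. Their upstream sequences are shown because they are the markers whose arrays separated most. Both genes lie on chromosome 4, far apart at the positions given below, and no link of place to level was tested. RefSeq windows of 300 bases, from 250 before to 50 after a transcription start (GRCh38.p14), were found for 7 of the 9 markers, with 5 windows for ABCG2 and 4 for PROM1. For PROM1 the window with the most GC boxes (GGGCGG) is printed, and for ABCG2 1 of 2 overlapping windows that tie for the most, with equal counts of CpG and E-boxes, taken for its lower start. Both are printed 5′ to 3′ on the minus strand, with capitals marking GC boxes and, in ABCG2, the E-box CACGTG. The ABCG2 window is chr4:88158810-88159109 and the PROM1 window is chr4:16083680-16083979.
ABCG2: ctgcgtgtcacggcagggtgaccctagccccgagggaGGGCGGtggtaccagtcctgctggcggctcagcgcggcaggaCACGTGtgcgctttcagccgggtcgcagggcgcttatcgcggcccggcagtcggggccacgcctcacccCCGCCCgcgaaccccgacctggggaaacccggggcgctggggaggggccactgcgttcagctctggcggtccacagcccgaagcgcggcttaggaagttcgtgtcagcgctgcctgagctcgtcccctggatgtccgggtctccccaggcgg
PROM1: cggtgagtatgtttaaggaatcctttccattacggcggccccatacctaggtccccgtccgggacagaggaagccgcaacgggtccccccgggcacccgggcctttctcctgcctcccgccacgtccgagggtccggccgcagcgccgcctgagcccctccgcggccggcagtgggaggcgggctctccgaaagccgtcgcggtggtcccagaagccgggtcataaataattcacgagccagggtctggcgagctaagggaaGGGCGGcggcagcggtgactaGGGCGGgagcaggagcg

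Each window held 2 GC boxes on either strand, the ABCG2 window also held 1 E-box, and neither held the TATA box letters TATAAA. These matches describe letters only. Among 35116 RefSeq windows of the same length, 45.0% held a GC box, 7.26% held CACGTG and 11.5% held TATAAA, all searched on both strands. The printed windows were picked for their GC boxes, so the 45.0% is no comparison for them, and some other windows of both genes held 0. The ABCG2 window was 72.3% G or C with 33 CpG dinucleotides, and the PROM1 window was 68.7% G or C with 32. The other ABCG2 windows held from 3 to 35 CpG dinucleotides, so the starts of this gene differ in composition. The arrays do not tell from which start the measured RNA came.

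Among the efflux and detoxifying markers, ABCG2 had log2 values of 6.83, 6.99 and 6.96 in control replicates 1, 2 and 3. With CDKL1 shRNA it had 7.91, 7.75 and 7.89. All 3 CDKL1 shRNA arrays lay above all 3 control arrays, with a gap of 0.76 between the groups against within-group ranges of 0.16 and 0.15. The mean was 6.93 ± 0.085 (SD, n = 3) with control shRNA and 7.85 ± 0.084 (n = 3) with CDKL1 shRNA. ABCG2 thus had a log2 difference of 0.93 (SE 0.064, 95% interval 0.77 to 1.08), a 1.90-fold higher level. In order of increase ABCG2 was number 23 of 18132 genes, and the fit across all genes called it higher. In a bulk extract, more cells with ABCG2 RNA and more ABCG2 RNA per cell cannot be told apart, and this holds for every gene below.

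ALDH1A1 had log2 values of 5.35, 5.01 and 5.04 in the control arrays and 5.25, 5.17 and 5.06 in the CDKL1 shRNA arrays. The groups overlapped, with control replicate 1 the highest array and control replicate 2 the lowest. The log2 difference was 0.02 (SE 0.097, 95% interval -0.20 to 0.25), and the gene was not called. Its level of about 5 lay just above the background control range, where differences read on such an array are compressed.

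Among the surface glycoproteins, PROM1, which sits on membrane protrusions, had log2 values of 5.39, 5.35 and 5.27 in the control arrays. With CDKL1 shRNA the values were 6.16, 6.25 and 6.34. The groups did not overlap and the gap between them was 0.77, wider than the spread within either group. The mean was 5.34 ± 0.064 (SD, n = 3) with control shRNA and 6.25 ± 0.091 (n = 3) with CDKL1 shRNA. The control mean lay not far above the background control range of moderate base composition, which ends at 4.92. It lay below the next control richer in G or C, at 5.43. The CDKL1 shRNA mean lay below a still richer control, at 6.33. Whether PROM1 lay above background thus depends on the controls chosen. The log2 difference of PROM1 was 0.91 (SE 0.061, 95% interval 0.77 to 1.06), a 1.88-fold higher level, and the gene was called higher. PROM1 was number 24 in order of increase, directly after ABCG2, and the 95% intervals of these log2 differences nearly coincide.

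CD44, the receptor for the matrix polysaccharide hyaluronan, went the other way by a small amount. Its log2 values were 9.26, 9.19 and 9.27 in the control arrays and 8.97, 9.18 and 9.14 in the CDKL1 shRNA arrays. The groups were separated by only 0.013, since CDKL1 shRNA replicate 2 nearly reached control replicate 2. Its log2 difference was -0.14 (SE 0.064, 95% interval -0.29 to 0.01), and CD44 was not called. Without CDKL1 shRNA replicate 1 the difference was -0.08, and with the ACTB covariate described below it was -0.28 (SE 0.10), neither called.

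ALCAM, an adhesion molecule of the immunoglobulin superfamily, had log2 values of 10.60, 10.64 and 10.62 in the control arrays and 10.46, 10.51 and 10.53 in the CDKL1 shRNA arrays. All 3 CDKL1 shRNA arrays were below the controls, with a gap of 0.071. The log2 difference was -0.12 (SE 0.042, 95% interval -0.22 to -0.02), and ALCAM was not called after adjustment over all genes. It was called lower after a further quantile normalisation (-0.15).

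EPCAM, an epithelial adhesion and signalling protein, gave a bright signal in every sample. Its log2 values were 13.58, 13.49 and 13.50 in the control arrays and 13.57, 13.50 and 13.52 in the CDKL1 shRNA arrays. The groups overlapped almost completely, and the log2 difference of 0.00 (SE 0.047) had a 95% interval from -0.11 to 0.12.

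SOX9, a high-mobility-group transcription factor needed for Paneth cells and active at the crypt base, had log2 values of 12.16, 12.26 and 12.30 in the control arrays and 12.26, 12.30 and 12.26 in the CDKL1 shRNA arrays. The lowest array was control replicate 1, and the groups overlapped. SOX9 had a log2 difference of 0.03 (SE 0.050, 95% interval -0.09 to 0.15) and was not called.

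DCLK1, the doublecortin-like kinase of tuft cells, had log2 values of 6.07, 5.75 and 5.76 in the control arrays and 5.84, 5.78 and 5.76 in the CDKL1 shRNA arrays. Control replicate 1 was the highest of the 6 arrays, while the rest lay within a narrow band. The log2 difference was -0.07 (SE 0.089, 95% interval -0.27 to 0.14), and DCLK1 was not called.

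**Figure D1:**
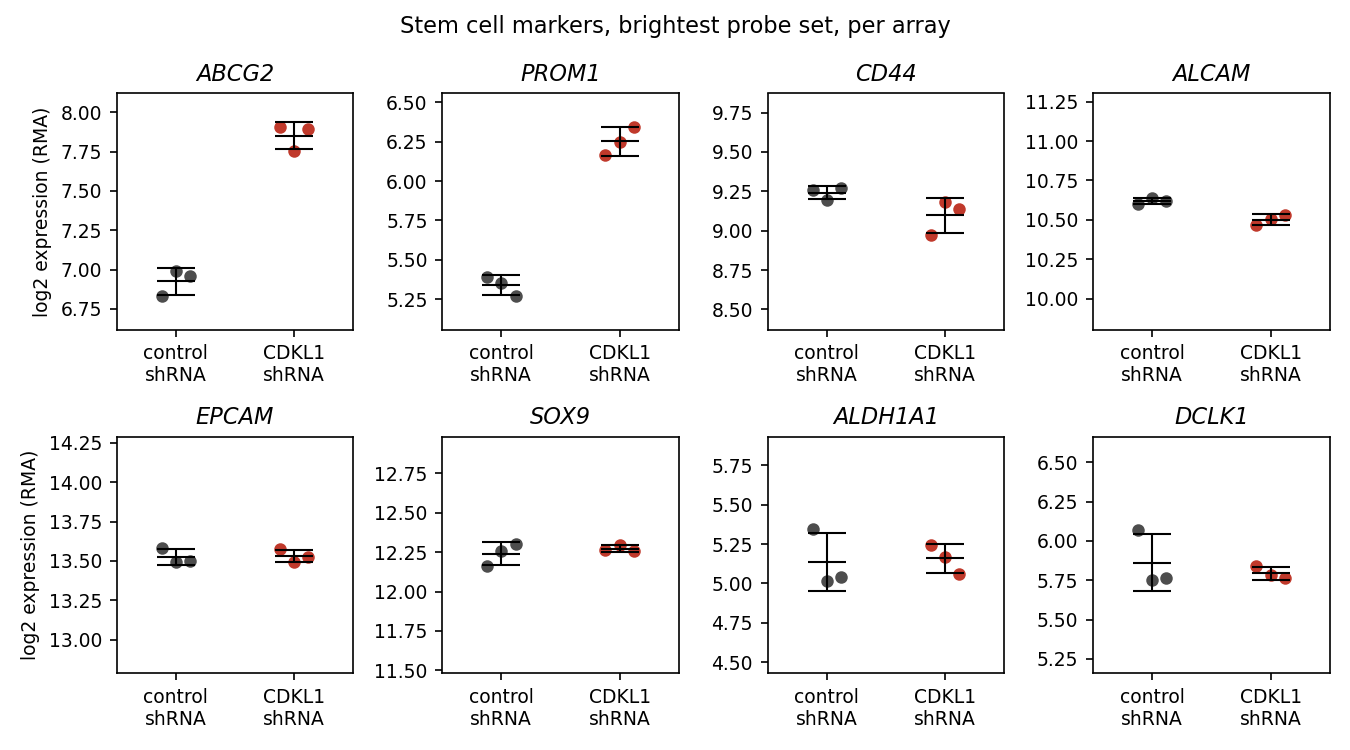
Log2 expression (RMA) of the 8 measured markers in each array, with points for the 3 control shRNA and 3 CDKL1 shRNA arrays and bars for the group mean and SD. The vertical axes start at different levels. ABCG2 and PROM1 show a clear gap between groups, CD44 and ALCAM a small downward one, and EPCAM, SOX9, ALDH1A1 and DCLK1 overlap.

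In the counts, 2 of the 8 measured markers were called higher, 0 were called lower and 6 were not called. Over all genes the same limma fit (adjusted p under 0.05, Benjamini-Hochberg over 18132 genes) called 3040, or 16.8%, of which 8.97% of all genes were higher and 7.79% lower. The groups did not overlap for 4 of the 8 markers, and over all genes this was so for 35.7%. The median log2 difference was 0.01 over the 8 markers and -0.01 over all genes. Because the markers were chosen with this contrast known, nothing is read from these shares.

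The only reading of RNA quality used here, from the ACTB control, was not alike in both groups. For the ACTB control probe sets, the log2 value at the 3′ end exceeded that at the 5′ end, a gap that grows as RNA or its labelled copy is shortened, by 1.39 to 1.41 in the control arrays and by 1.52 to 1.73 in the CDKL1 shRNA arrays, with CDKL1 shRNA replicate 2 highest. With that value as a covariate, the log2 difference was 1.07 (SE 0.10) for ABCG2 and 0.89 (SE 0.12) for PROM1, and both were called in a fit that called 219 genes, 1.21% of all. Leaving out CDKL1 shRNA replicate 2 gave 0.97 for ABCG2 and 0.92 for PROM1. The covariate with that replicate left out gave 0.98 (SE 0.38) for ABCG2 and 0.27 (SE 0.32) for PROM1, in a limma fit that called 0 of 18132 genes, with 658 at an unadjusted p under 0.05. The ACTB values of the groups did not overlap, and without that array they were 1.52 and 1.55 against 1.39 to 1.41 in the controls. RNA quality, as far as this 1 transcript reads it, and shRNA can thus hardly be told apart in fits with this covariate, least of all in the last.

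**Figure D2:**
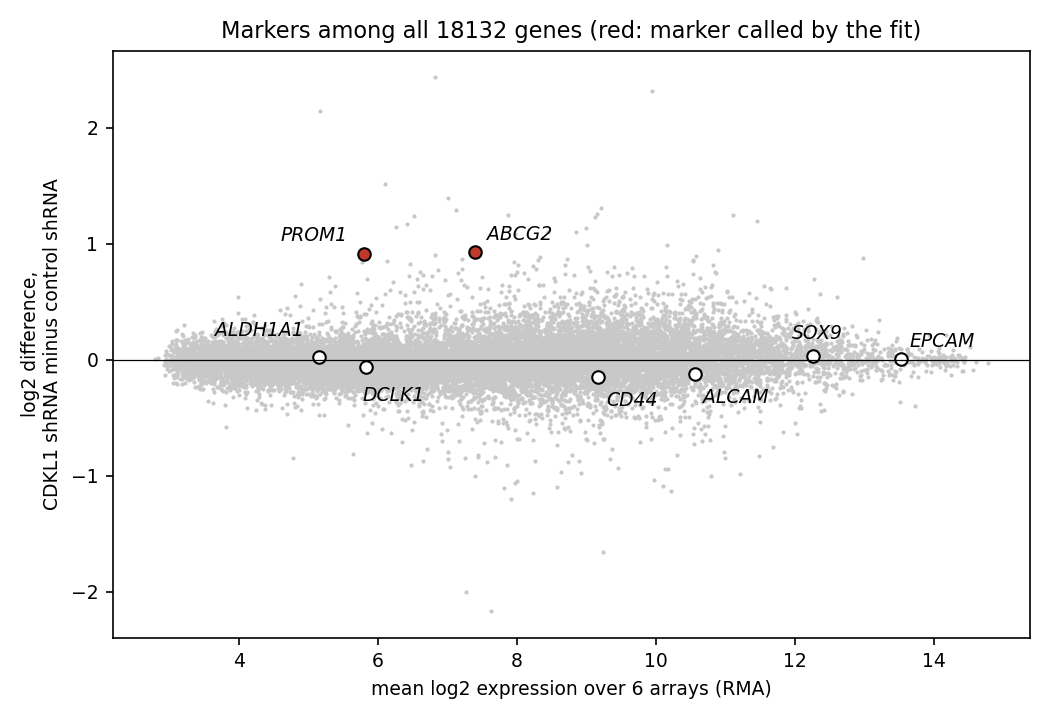
Mean log2 level over 6 arrays against the log2 difference (CDKL1 shRNA minus control shRNA) for all 18132 genes, with the 8 markers labelled and the called ones in red. ABCG2 and PROM1 lie near the upper edge of the cloud at 0.93 and 0.91, and the other 6 markers lie between -0.14 and 0.03.

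The markers' other probe sets did not all repeat the value of the brightest. In all, 37 probe sets carried a measured marker's symbol alone, of which 3 were called and 8 lay at or under the background control range, and 12.6% of all 49293 probe sets were called in the corresponding fit. Probe sets of 1 gene share its RNA and are not replicates, and a suffix of _s or _x marks sets that may cross to related transcripts.

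ABCG2 had 1 other probe set, 11724537_a_at, with log2 values of 5.35, 5.17 and 5.30 in the control arrays and 5.18, 5.34 and 5.34 in the CDKL1 shRNA arrays. Its groups overlapped and its log2 difference was 0.02 (SE 0.071), against 0.93 for the brighter 11724538_a_at. The mean level of 11724537_a_at was 5.28, not far above the background range, where differences are compressed. PROM1 had 1 other probe set, 11756660_a_at, within the background range, with log2 values of 4.52, 4.77 and 4.51 in the control arrays and 4.85, 4.83 and 4.67 in the CDKL1 shRNA arrays. Its log2 difference was 0.18 (SE 0.087) and its groups overlapped. The brighter PROM1 set, 11754354_s_at, carries the _s suffix, and its mean level over the 6 arrays was 5.80. The increase of each gene was therefore read on 1 of its 2 probe sets, and which transcripts each set binds was not tested. For scale, 170 genes were called with at least a 1.5-fold change and had more than 1 probe set, and in 39 of them (22.9%) the next brightest set showed under 25% of the brightest set's change.

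All 10 CD44 probe sets had a lower mean with CDKL1 shRNA, with log2 differences from -0.34 to -0.03 and a median of -0.14. In 6 of the 10 the groups did not overlap, beside 32.9% of all 49293 probe sets. One of them was called, 11742043_a_at, at 7.04, 6.99 and 7.03 in the control arrays and 6.74, 6.65 and 6.65 in the CDKL1 shRNA arrays, a log2 difference of -0.34 (SE 0.050). CD44 is spliced into many isoforms, and the part of the transcript that each probe set reads is not used here.

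ALCAM also had a lower mean with CDKL1 shRNA in all 8 of its probe sets, from -0.40 to -0.12 with a median of -0.19. None of the 8 was called, and in 3 the groups did not overlap, a share near the 32.9% of all probe sets. With a gene taken as the mean of its probe sets, the fit called both CD44 (-0.14) and ALCAM (-0.22) lower. ALCAM was also called lower with the median of its probe sets (-0.28).

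EPCAM and SOX9 had small positive differences in all of their probe sets. They ran from 0.00 to 0.07 over the 3 EPCAM sets and from 0.03 to 0.19 over the 3 SOX9 sets, and none was called. In 2 of the SOX9 sets the CDKL1 shRNA arrays lay above the controls without overlap, as groups were apart in 32.9% of all probe sets, and neither set was called. ALDH1A1 (3 sets) and DCLK1 (6 sets) had differences of both signs, within -0.09 to 0.22, and 6 of these 9 sets lay within the background range.

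**Figure D3:**
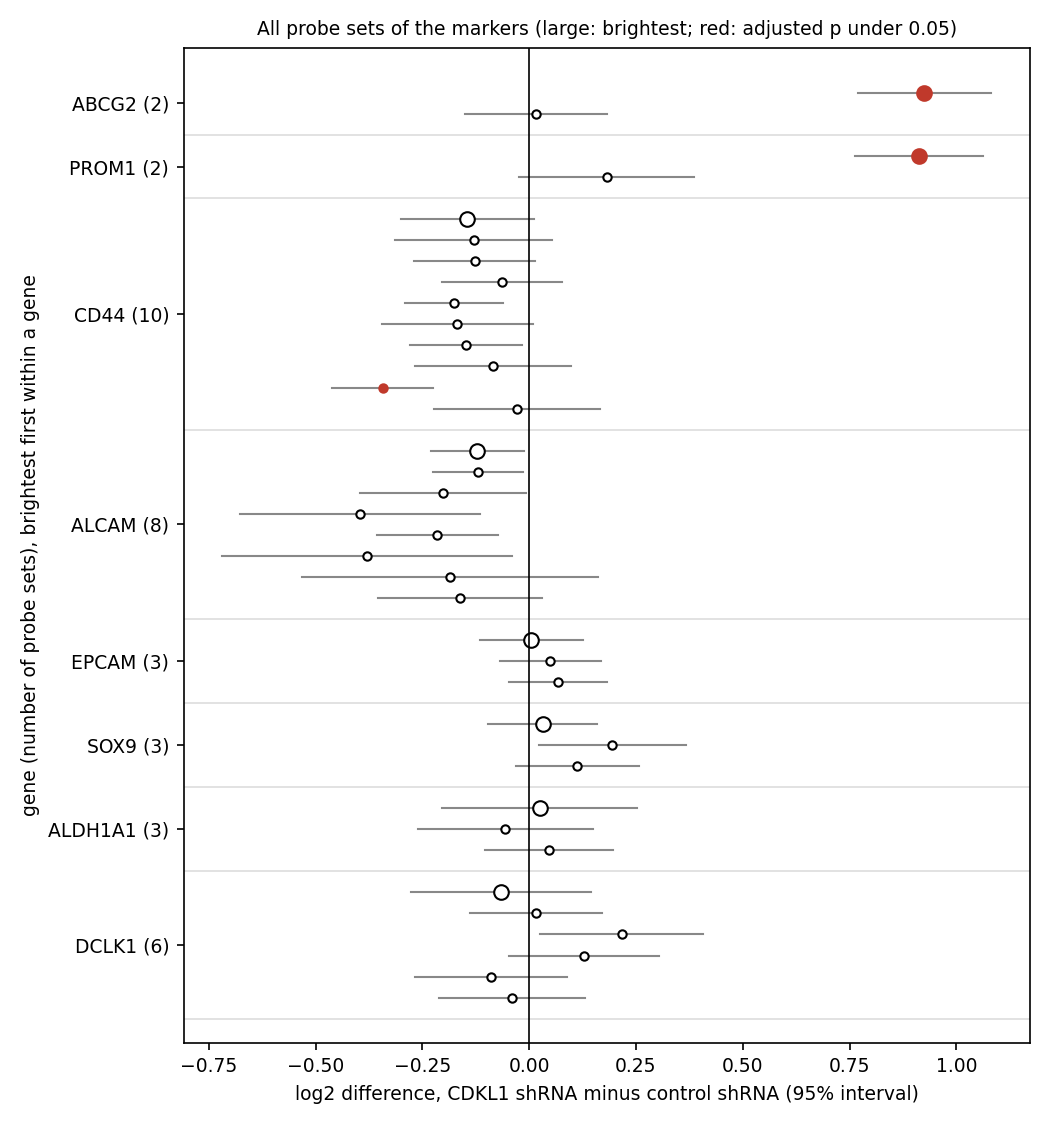
Log2 difference (CDKL1 shRNA minus control shRNA) of each of the 37 probe sets by marker, with 95% intervals, the brightest set of each marker as a large point and called sets in red. The increase of ABCG2 and of PROM1 appears in the brightest set, while every CD44 and ALCAM set lies below 0.

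The markers were set beside genes that work with them, in lists written with earlier results of these data known. Of 188 measured genes in these lists, 5 were called higher and 20 lower, or 13.3%, beside 16.8% over all genes (8.97% higher and 7.79% lower). With the ACTB covariate 5 were called, namely CLDN1, PSENEN, ALDH9A1, RYBP and the smooth muscle actin ACTA2, the last named after its value was seen, and the part of RNA quality in the calls below was not tested further. The 12 epithelial markers of the line had log2 levels from 5.37 to 14.25, none within the background range that ends at 4.92. Of these, KRT20, a keratin of differentiated colonocytes, rose (log2 0.52, limma adjusted p = 0.000746), and VIL1, the brush border actin bundler, fell (log2 -0.57, adjusted p = 0.019, not called without control replicate 1 or 3 or with the median of its probe sets). The 13 measured markers of leukocytes, endothelium and fibroblasts lay between 3.55 and 6.70, 4 of them within the background range, and limma called 0 of them, with 1 at an unadjusted p under 0.05. Without CDKL1 shRNA replicate 2, limma called 2 of them lower, ACTA2 and CD3E, a T cell receptor complex subunit, named after their values were seen. Their summed log2 level was 67.7 to 68.0 in the control arrays and 66.6 to 68.1 in the CDKL1 shRNA arrays. Of the epithelial markers, LGALS4 (5.37), MUC2 (5.40), VIL1 (5.57), GPA33 (6.15) and CDX1 (6.19) lay within the 3.55 to 6.70 of these other markers. Apart from VIL1 they were named after their values were seen. LGALS4 and MUC2 lay below the next control richer in G or C, at 5.43, so their place above background depends on the controls chosen.

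Of 21 measured genes of intestinal stem and progenitor cells, 0 rose and 6 fell, with a median log2 difference of -0.09. Over all genes 8.97% were called higher and 7.79% lower, and the list was not tested as a set. LGR5, the R-spondin receptor of crypt base columnar cells, had log2 values of 9.35, 9.38 and 9.43 in the control arrays and 8.92, 9.06 and 9.09 in the CDKL1 shRNA arrays. Its groups did not overlap, and it fell by 0.36 on the log2 scale (SE 0.058, limma adjusted p = 0.00657). TNFRSF19 (TROY), a receptor also found on crypt base stem cells, fell by 0.49 (SE 0.045, adjusted p = 0.000828), though the call was lost with the median of its probe sets (-0.15, adjusted p = 0.115). CDCA7, a MYC-responsive nuclear protein, fell by 0.29 (adjusted p = 0.00363). KLF5, a transcription factor of proliferating crypt cells, fell by 0.31 (adjusted p = 0.0143), a call lost without control replicate 2 or 3 or CDKL1 shRNA replicate 3 (adjusted p = 0.0505 to 0.0545) and with the median of its probe sets (-0.18, adjusted p = 0.089).

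ASCL2, the Wnt-driven stem cell factor, had a log2 difference of -0.18 and was not called (limma adjusted p = 0.0793). It was called without control replicate 1 (-0.23, adjusted p = 0.0367) and after further quantile normalisation (-0.21, adjusted p = 0.0262). OLFM4, a secreted stem cell marker, had -0.03 (adjusted p = 0.869), and the surface protein CD24 had 0.07 (adjusted p = 0.434). Leaving out replicate 3 of either group lowered the number that fell from 6 to 3, and with the ACTB covariate limma called 0 of the list. The called genes of this list were thus all lower, while ABCG2 and PROM1 were higher.

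Among 19 measured multidrug and other ABC transporters apart from ABCG2, 1 rose and 1 fell, with a median log2 difference of -0.00. ABCB1 (P-glycoprotein), the classical multidrug pump, had log2 values of 10.15, 10.13 and 10.20 in the control arrays and 10.44, 10.45 and 10.52 in the CDKL1 shRNA arrays. It rose by 0.30 (SE 0.046, limma adjusted p = 0.00532), but the call was lost with the mean of its 4 probe sets (log2 0.10, adjusted p = 0.216). ABCC3, an exporter of organic anions, fell by 0.42 (SE 0.049, adjusted p = 0.00204). ABCC1 (log2 -0.00, adjusted p = 0.957) and ABCC2 (log2 0.03, adjusted p = 0.867) were not called.

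Among 18 measured aldehyde dehydrogenases apart from ALDH1A1, 1 rose and 1 fell, with a median of -0.08. ALDH9A1, which oxidises aminoaldehydes on the way to carnitine, fell from 10.64 ± 0.060 (SD, n = 3) to 9.70 ± 0.035 (n = 3), a log2 difference of -0.94 (SE 0.049, limma adjusted p = 0.00013), with each of its 3 probe sets lower. ALDH18A1, the proline synthesis enzyme, rose by 0.33 (adjusted p = 0.00999). ALDH1A3 (log2 -0.11, adjusted p = 0.272) and ALDH1B1 (log2 0.01, adjusted p = 0.906), close relatives of ALDH1A1 that colon cells can also use, were not called. Without control replicate 1, 4 of the 18 fell.

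BMI1 itself could not be read, but 25 other Polycomb genes could, of which 0 rose and 6 fell, with a median of -0.06. This list too was not tested as a set, and 7.79% of all genes were called lower. RYBP, a subunit of non-canonical Polycomb repressive complex 1, fell by 0.49 (SE 0.044, limma adjusted p = 0.00073), with each of its 4 probe sets lower. PHC2, a canonical subunit of that complex, fell by 0.24 (adjusted p = 0.0127, not called without CDKL1 shRNA replicate 3). SUZ12, a core subunit of Polycomb repressive complex 2, fell by 0.23 (adjusted p = 0.0225), a call lost on leaving out control replicate 2 or each CDKL1 shRNA array in turn (adjusted p = 0.0533 to 0.0824). YAF2, the paralogue of RYBP, had -0.18 (adjusted p = 0.0311), a call lost when any 1 array was left out. PCGF2, the close relative of BMI1 (log2 -0.16, adjusted p = 0.0821), and EZH2, the methyltransferase (log2 -0.17, adjusted p = 0.0661), were not called. Both were called lower after further quantile normalisation (EZH2 -0.20, limma adjusted p = 0.0253). EZH2 was also called with the mean (-0.25, adjusted p = 0.0153) or median (-0.41, adjusted p = 0.0287) of its probe sets. With a filter above the background control range it was called too (adjusted p = 0.0447). The number that fell was 4 without control replicate 1 and from 1 to 3 without any other array, and it was 1, RYBP, with the ACTB covariate.

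Of 17 measured genes that bind, cleave or relay EPCAM, 1 rose and 3 fell. CLDN1, a tight junction claudin, had log2 values of 8.61, 8.38 and 8.53 in the control arrays and 9.51, 9.45 and 9.53 in the CDKL1 shRNA arrays. It rose by 0.99 (SE 0.066, limma adjusted p = 0.00025), a 1.98-fold higher level seen in all 4 of its probe sets. CLDN7, the claudin that binds EPCAM directly, had -0.02 (adjusted p = 0.845). PSENEN, a subunit of the gamma-secretase that releases the EPCAM intracellular domain, fell by 0.48 (adjusted p = 0.000894), and ST14 (matriptase), which cleaves EPCAM, fell by 0.22 (adjusted p = 0.0161). The ST14 call was lost without control replicate 2 and with the mean of its probe sets (-0.12, limma adjusted p = 0.108). FHL2, a cofactor of that domain, had -0.18 (adjusted p = 0.0364) and was not called when any 1 array was left out. Without control replicate 2 only 1 of these genes, PSENEN, fell.

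Of 21 measured partners and regulators of CD44, 0 rose and 1 fell. RDX (radixin), which ties the CD44 tail to actin, fell by 0.39 (SE 0.050, limma adjusted p = 0.00303), with 6 of its 8 probe sets lower and 2 higher. Its relative EZR (ezrin) had -0.29 with a larger spread (SE 0.159, adjusted p = 0.283), and it was called without CDKL1 shRNA replicate 1 (-0.47, adjusted p = 0.0415), while the mean of its probe sets gave 0.02. ESRP1, the splicing factor that sets the epithelial CD44 isoforms, had -0.03 (adjusted p = 0.781).

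Among 18 measured SOX genes apart from SOX9, 0 rose and 1 fell, with a median of -0.04. SOX12 fell by 0.41 (SE 0.060, limma adjusted p = 0.00472), while SOX4, of the same subgroup, had -0.02 (adjusted p = 0.841). Of 14 measured pluripotency and self-renewal genes, MYC, the growth-promoting transcription factor, rose by 0.24 (adjusted p = 0.00727) and was the only one called, and SOX2 had -0.06 (adjusted p = 0.504, and 0.12 with the median of its probe sets). Of 11 measured sequence relatives of the markers, limma called 0, with 1 at an unadjusted p under 0.05, and among those not called were PROM2 (log2 0.04, limma adjusted p = 0.727, and -0.18 with the median of its probe sets) and DCLK2 (log2 0.19, adjusted p = 0.313, and 0.0423 without control replicate 1).

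**Figure D4:**
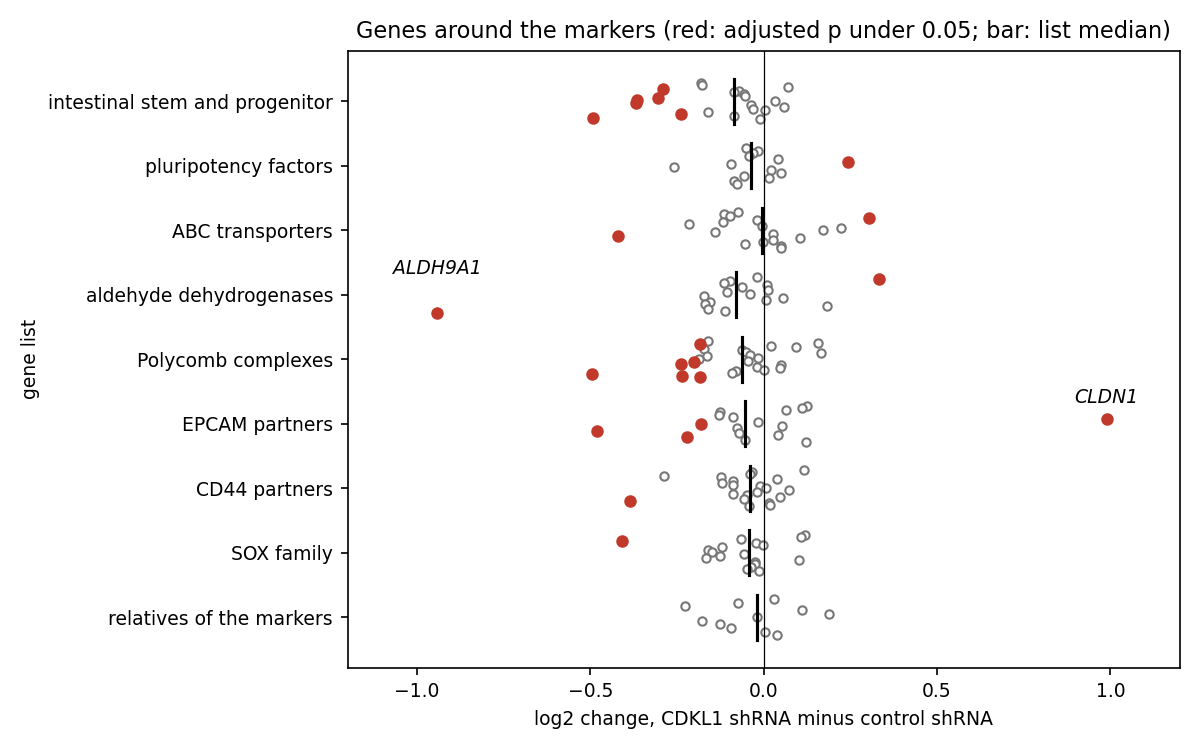
Log2 difference (CDKL1 shRNA minus control shRNA) of each measured gene of the context lists, 1 row per list, with called genes in red and a bar at the list median. Called genes of the stem and progenitor list and of the Polycomb list all lie below 0, and of the genes plotted CLDN1 (0.99) and ALDH9A1 (-0.94) lie farthest out.

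The genes whose array pattern was most like that of ABCG2, by Pearson r over the 6 arrays among 66 genes of similar or higher brightness and similar log2 difference, were HDAC9 (r = 0.998, log2 0.77), UFM1 (r = 0.996, log2 0.70) and MIGA1 (r = 0.996, log2 0.73). PROM1 had r = 0.974 with ABCG2. The 6 arrays form 2 groups, so r with ABCG2 mostly carries the difference between them. For CD44 the closest of 6492 genes were NBAS (r = 0.996, log2 -0.07), GM2A (r = 0.990, log2 -0.13) and PGAP2 (r = 0.989, log2 -0.05), none of them called. With CD44 the spread within groups also enters r. Genes picked as the highest of many over only 6 arrays can reach such r by selection, and no link was tested.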

How the data were processed

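RNA was isolated with TRIzol and 6 µg per sample served to label cRNA for 6 Affymetrix arrays, per the labels' protocols. The deposited values are on a log2 scale, made by the authors with RMA (background correction, quantile normalisation, probe summary) per the submitters' processing notes, in a version not given in the sources used here. Changes of dim probe sets are compressed by RMA, and detection calls and scanner files were not analysed here. Of 49395 probe sets, 44988 had 1 gene symbol in the platform annotation, 1832 had several and were not used, and 2473 had none, and 102 more were controls. The brightest probe set over the 6 arrays stood for a gene. EPHB2 and RNF2 were not analysed here.

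Differences were fitted with limma 3.58.1 in R 4.3.3 (lmFit, eBayes, two-sided, Benjamini-Hochberg over 18132 genes, threshold 0.05), and the code was tested on simulated data. Probe sets were fitted in the same way. Tables and figures used Python 3.11.15, pandas 2.3.3 and matplotlib 3.10.9. 3 arrays a group limit the precision. The members, gene lists and named-gene rule were chosen with earlier results of these data known. Named are all members, up to 4 called genes per list (smallest adjusted p), fixed anchor genes called or not, and the 3 genes most like the member with the largest difference and the largest of the other sign. Background was read from controls of 10 to 16 G or C (2.97 to 4.92), the cut of a filter added after seeing the data. Controls richer in G or C were brighter, from 5.43 up to 10.74 for the brightest, with 25. Promoter windows came from RefSeq (GRCh38.p14). 0 columns of per-sample values were unused.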

Additional observations from a re-analysis of the deposited data

How the results depend on the processing

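ABCG2 and PROM1 stayed called higher when each array was left out (0.88 to 0.97 and 0.87 to 0.96), so 2 to 2 markers were called, and 2 were called with the replicate block. The markers were chosen with this contrast known, so the refits describe their values and are no separate support. With each gene as the mean of its probe sets 4 markers were called, ABCG2 and PROM1 at 0.47 and 0.55. A cut at the brightest background control (10.74) left 1811 genes, of which 943 were called, with 0 markers called of the 2 still tested (EPCAM and SOX9) and 12 context genes called of 27. The count of all genes called, 3040, was 1803 with the replicate block, 219 with the ACTB covariate and 1633 to 2399 with 1 array left out, a change of over 1.5 times on leaving out control replicate 2 (1839) or 3 (1865), or replicate 2 (2026) or 3 (1633) of the CDKL1 shRNA group. The 25 context genes called became 5 with the ACTB covariate and 16 to 26 with 1 array left out. They became 32 after further quantile normalisation and 32 with the mean of probe sets. A filter above the controls of 10 to 16 G or C, added after seeing the data, left 14900 genes, of which 3473 were called. With it 37 of 158 context genes and 2 markers were called. The ACTB covariate with CDKL1 shRNA replicate 2 left out, added after seeing the data, called 0 genes, 0 markers and 0 context genes. It turned the sign of 8 of the 37 named context genes, of which ALDH18A1 (-0.11) and FHL2 (0.10) had been called. The covariate nearly repeats the groups in that fit, so its calls and signs cannot tell RNA quality from the shRNA, and the cause was not tested. Of 454 values of 37 named context genes under the alternatives not added later, 393 kept their side of the threshold, 53 lost the call and 8 gained it. The sign turned in 32 of the 393, all of them in 11 genes that had not been called. With 1 array left out, EPCAM (-0.02 to 0.03), SOX9 (-0.01 to 0.06), ALDH1A1 (-0.04 to 0.13) and DCLK1 (-0.12 to 0.04) spanned 0. Same-numbered samples did not deviate together over all genes (r = -0.029, -0.121 and 0.070). The check showed no pairing by number, but with 3 arrays a group it cannot exclude it. Levels within or not far above background limit ALDH1A1, DCLK1, both PROM1 sets and the dimmer ABCG2 set.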
